A study of Mus musculus with 6 samples.

Results

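Cytochrome P450 genes were taken as the protein-coding genes whose symbol is Cyp followed by a family number, subfamily letters and a gene number. The rule gave 98 of 21887 protein-coding genes on the autosomes and sex chromosomes of the mouse. Their gene bodies, each extended by 10 kb on either side, overlapped 346 of the 323483 accessible intervals of the experiment. The intervals came from ATAC-seq, which cuts and tags accessible chromatin with a transposase before sequencing, and each belongs to the consensus set of called peaks.

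The cells were mouse embryonic fibroblasts of the cross M2-rtTA x TetO-Myf6, heterozygous for both alleles, held for 24 h in iMPC medium, a serum-containing medium with 10 ng/mL bFGF. Each of 3 groups had 2 libraries: medium alone, medium with 2 µg/mL doxycycline to induce the muscle regulator Myf6, and medium with doxycycline, 5 µM forskolin, 5 µM RepSox and 3 µM CHIR99021. Every group carries both transgenes, and doxycycline and Myf6 induction cannot be told apart in this design. Whether replicates came from separate cultures is not in the labels. The intervals are a single consensus set and carry no value per library, so groups were not compared, depth is unknown, no value below has a replicate error, and an interval does not say in which group it arose.

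P450 enzymes are haem proteins that use oxygen and electrons from a reductase to oxidise small molecules. Some make or break down steroid hormones, bile acids, vitamin D and retinoic acid, each with a narrow substrate range and usually a single gene. Others, above all in the Cyp2, Cyp3 and Cyp4 families, are expressed strongly in liver, clear foreign compounds and fatty acids, and lie in tandem clusters of similar genes.

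Fewer P450 genes than protein-coding genes at large had an interval nearby, and the shortfall lay in the clusters. An interval fell within 10 kb of 63 of the 98 members (64.3%), against 85.3% of all protein-coding genes. Of the 30 members outside clusters, 29 had one, and of the 68 clustered Cyp2, Cyp3 and Cyp4 genes, 34 had one. A cluster was a run of at least 3 such genes with at most 500 kb between neighbours, and 7 were found. The density, in intervals per 100 kb of the extended gene, had a median of 19.4 outside clusters, 0.599 in clusters and 18.2 over all protein-coding genes (quartiles 8.62 and 26.3).

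Steroid and sterol enzymes together with Cyp1b1, 13 genes in all, were set against the 68 clustered genes. All 13 had an interval within 10 kb and their median density was 17.9, close to that of protein-coding genes at large. An interval at the gene start was counted within 1 kb of a RefSeq start, which the promoter table gave for 76 members. For the other 22 members either gene end was used instead. By this measure 7 of the 13 steroid, sterol and Cyp1b1 genes (53.8%) and 11 of the 68 clustered genes (16.2%) had such an interval, against 72.7% of all protein-coding genes. The order of the 13 genes and all genes turned with the distance: within 2 kb, 11 of the 13 (84.6%) and 76.3% of all genes had one. Where the start was known the counts within 1 kb were 4 of 6 and 9 of 56, against 71.6%, and where an end stood in they were 3 of 7 and 2 of 12, against 76.9%. The start base itself lay inside an interval in 18 of 76 members, against 65.3%. No test was run between these gene groups, because genes of a single joined interval set are not replicates.

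Pooled over the windows of clustered genes, which reach beyond the clusters, intervals were not narrower than those of all protein-coding genes. Their median width was 374 bp (110 distinct intervals), against 345 bp for all protein-coding genes and 311 bp for the 13 genes (123 intervals). Inside the limits of single clusters, the median width was below 345 bp in the Cyp2d, Cyp2j and Cyp4abx clusters. It was above 345 bp in the Cyp2abfgst, Cyp4f and Cyp3a clusters, the last with only 2 intervals, and the Cyp2c cluster had no interval. Densities were also counted over the merged extended genes, so that shared intervals count once. They were 3.56 per 100 kb for the clustered genes, 16.8 for the 13 genes and 16.4 for all protein-coding genes.

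**Figure D1:**
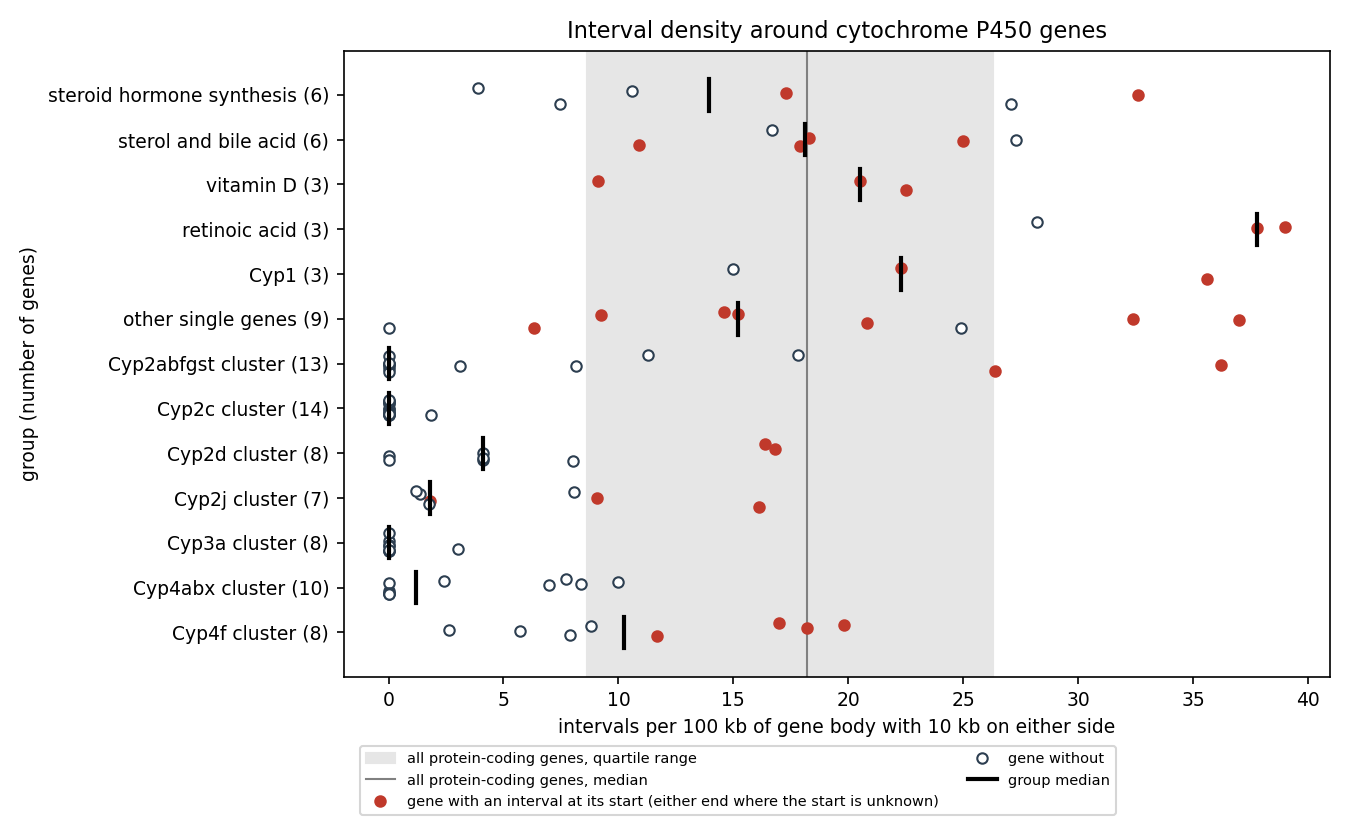
Intervals per 100 kb (horizontal axis) for each of the 98 P450 genes by group (rows, with the number of genes). Filled points have an interval at the start, or at either end where the start is unknown, and thick bars are group medians. The Cyp2abfgst, Cyp2c and Cyp3a medians are at 0, whereas the sterol median of 18.1 falls beside the median of all protein-coding genes, 18.2.

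Sequences before the starts are shown for 6 genes that span the contrast. They are the 250 bases before the RefSeq start on GRCm38.p6, 5′ to 3′ in the direction of transcription, with each CG dinucleotide in capitals. The first 3 lie wholly or mostly inside an interval, the next lies beside one, and the last 2, of clustered genes, lie far from any.
Cyp1b1 (chr17:79715062-79715311, minus strand): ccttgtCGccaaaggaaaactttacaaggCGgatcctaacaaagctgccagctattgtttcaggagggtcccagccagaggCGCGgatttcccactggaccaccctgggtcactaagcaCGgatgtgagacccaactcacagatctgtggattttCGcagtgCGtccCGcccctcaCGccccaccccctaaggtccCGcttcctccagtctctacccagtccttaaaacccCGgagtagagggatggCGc
Cyp27a1 (chr1:74713285-74713534, plus strand): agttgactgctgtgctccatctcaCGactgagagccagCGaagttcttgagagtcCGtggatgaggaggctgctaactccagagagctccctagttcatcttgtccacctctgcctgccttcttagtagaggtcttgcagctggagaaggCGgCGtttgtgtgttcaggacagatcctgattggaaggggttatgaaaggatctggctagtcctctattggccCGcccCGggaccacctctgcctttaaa
Cyp46a1 (chr12:108334066-108334315, plus strand): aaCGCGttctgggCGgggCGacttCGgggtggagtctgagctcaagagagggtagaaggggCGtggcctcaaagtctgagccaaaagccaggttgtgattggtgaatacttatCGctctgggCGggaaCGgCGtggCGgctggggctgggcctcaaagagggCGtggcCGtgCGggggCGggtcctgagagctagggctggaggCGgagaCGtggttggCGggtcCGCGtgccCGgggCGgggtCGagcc
Cyp1a1 (chr9:57697363-57697612, plus strand): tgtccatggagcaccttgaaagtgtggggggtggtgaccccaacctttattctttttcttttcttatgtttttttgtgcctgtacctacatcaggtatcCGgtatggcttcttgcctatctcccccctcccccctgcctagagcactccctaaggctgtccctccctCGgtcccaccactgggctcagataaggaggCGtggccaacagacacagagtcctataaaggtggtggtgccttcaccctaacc
Cyp3a11 (chr5:145879855-145880104, minus strand): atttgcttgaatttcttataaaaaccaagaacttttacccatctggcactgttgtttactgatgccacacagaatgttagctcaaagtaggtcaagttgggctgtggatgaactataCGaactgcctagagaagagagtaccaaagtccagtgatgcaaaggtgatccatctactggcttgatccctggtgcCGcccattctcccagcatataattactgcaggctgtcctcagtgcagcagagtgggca
Cyp2c29 (chr19:39286835-39287084, plus strand): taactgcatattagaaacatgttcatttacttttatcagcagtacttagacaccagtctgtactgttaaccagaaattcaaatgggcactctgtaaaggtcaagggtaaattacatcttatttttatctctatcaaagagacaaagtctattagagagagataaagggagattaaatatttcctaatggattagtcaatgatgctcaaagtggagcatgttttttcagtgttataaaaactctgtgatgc
Cyp46a1 held 23 CG dinucleotides in this stretch, Cyp1b1 12, Cyp27a1 7, Cyp1a1 3, Cyp3a11 2 and Cyp2c29 0.

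Among the Cyp1 genes, targets of the aryl hydrocarbon receptor that oxidise polycyclic compounds and oestrogens, Cyp1b1 had the most intervals. Cyp1b1 (gene ID 13078, chromosome 17, 79706940 to 79715061), known from mesenchymal cells and the developing eye, had 10 intervals within 10 kb, or 35.6 per 100 kb, which covered 19.7% of the extended gene. Around its start 3 intervals followed each other, from 79713394 to 79714765 (1372 bp), from 79714970 to 79715277 (308 bp, over the start base) and from 79715411 to 79716152 (742 bp). The interval over the start takes in most of the printed Cyp1b1 stretch, which has GCGTG, the core of the receptor's binding element, 76 bases before the start on the opposite strand. Another 3 Cyp1b1 intervals lay past the end of the gene, the widest from 79700895 to 79701830 (936 bp).

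Cyp1a1 and Cyp1a2, neighbours on chromosome 9 and the classical inducible pair of the family, differed from Cyp1b1 at the start. Cyp1a1 (gene ID 13076, 57687928 to 57703824) had 8 intervals within 10 kb, and the base of its only listed start was not covered. That start lies inside the gene span, whose lower end was covered by another interval, 565 bp wide (57687790 to 57688354). An interval of 981 bp (57696270 to 57697250) ended 363 bp before the Cyp1a1 start. The printed Cyp1a1 stretch has TATAAA, the TATA box, 30 bases before the start and GCGTG 54 bases before it. Cyp1a2 (gene ID 13077, 57676937 to 57683655), a liver enzyme, had 4 intervals within 10 kb and none over the gene. The nearest of them to the Cyp1a2 start was 4135 bp away, and 3 of the 4 lay over Cyp1a1.

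The steroid hormone enzymes spanned a wide range. Cyp11a1 (gene ID 13070, chromosome 9, 57998024 to 58027031), which cleaves the cholesterol side chain in the first step of steroid synthesis, led with 16 intervals and 32.6 per 100 kb. An interval of 1136 bp (57997652 to 57998787) covered the Cyp11a1 start at the lower end of the gene. The widest other interval inside the gene measured 978 bp (58008797 to 58009774), and the widest before the gene 767 bp (57989076 to 57989842). Cyp19a1, the aromatase that makes oestrogens, had 13 intervals within 10 kb, or 10.6 per 100 kb of the extended gene, and 8 of them lay over its long gene body. None lay within 1 kb of its 3 listed starts. The widest Cyp19a1 interval, 1253 bp from 54264182 to 54265434, came 2730 bp from the nearest start. Cyp17a1, the hydroxylase and lyase of androgen synthesis, had 7 intervals (27.1 per 100 kb), with the widest at 871 bp inside the gene and none within 1 kb of either end.

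Among the 6 steroid hormone genes, Cyp21a1, Cyp11b1 and Cyp11b2 had the fewest. Cyp21a1, needed for glucocorticoids and mineralocorticoids, had 4 intervals, all beyond the gene, and the nearest was 290 bp wide at 501 bp from its upper end. Cyp11b1, which makes corticosterone, had 2 intervals of 141 and 120 bp, and Cyp11b2, the aldosterone synthase next to it, shared the narrower of these as its only interval, 7844 bp away. Of the 6 steroid hormone genes, 3 had an interval over the gene body (Cyp11a1, Cyp17a1 and Cyp19a1), against 79.1% of all protein-coding genes. These 6 genes are short, with a median length of 6294 bp against 17169 bp, and the part of length in this count was not tested.

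Of the 6 sterol and bile acid enzymes 4 had an interval of at least 600 bp at a start or end, a share near the 64.6% of all protein-coding genes. Cyp27a1 (gene ID 104086, chromosome 1, 74713148 to 74737897), the mitochondrial sterol hydroxylase of the acidic bile acid pathway, had 8 intervals, of which that at its start measured 1840 bp (74712852 to 74714691). Cyp46a1 (gene ID 13116, chromosome 12, 108334268 to 108362234), the cholesterol hydroxylase of neurons, had 12, with 1852 bp at its start (108332993 to 108334844). Cyp7b1 (gene ID 13123, chromosome 3, 18071944 to 18243890), an oxysterol hydroxylase, had 21 intervals, the highest count of the 98 members. The widest, 1324 bp, lay across the upper Cyp7b1 end (18242810 to 18244133), and 19 lay over the gene. Over this long gene the density was 10.9 per 100 kb. Cyp39a1 (gene ID 56050, chromosome 17, 43667372 to 43751431), another oxysterol hydroxylase, had 19, with 1058 bp over its lower end (43666681 to 43667738) where the neighbour Slc25a27 overlaps the same interval.

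The bile acid enzymes known best from liver were not among the 4 with such an interval. For Cyp8b1 only the listed start counted, and for Cyp7a1 either end. Cyp7a1, the rate-limiting enzyme of bile acid synthesis, had 5 narrow intervals of 130 to 374 bp, 1 of them over the gene and none within 1 kb of an end. Cyp8b1, required for cholic acid, had 6, with the widest (839 bp, 121913996 to 121914834) over the far end of the gene and 1471 bp from the start. The nearest interval to the Cyp8b1 start was 1323 bp away.

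All 3 vitamin D genes had an interval at a start or end, as had 72.7% of all protein-coding genes. Cyp27b1, which makes the active hormone, had 2070 bp at its start (chromosome 10, 127048245 to 127050314). Cyp2r1, which makes the circulating form, had 896 bp (chromosome 7, 114562489 to 114563384). Cyp24a1, the inactivating enzyme, had 4 intervals of 153 to 496 bp within 1 kb of its upper end on chromosome 2, where Pfdn4 overlaps all 4.

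The retinoic acid hydroxylases of the Cyp26 family, which limit retinoid signalling in the embryo, had the highest median density of the role groups, 37.8 per 100 kb. Cyp26a1 (gene ID 13082, chromosome 19, 37697738 to 37701536) had 9 intervals and Cyp26c1 beside it 11, several of them shared. The interval at the Cyp26a1 start measured 1132 bp (37697423 to 37698554). At Cyp26c1 the nearest was 419 bp wide (37685091 to 37685509). It ended 171 bp before the listed start and covered the lower end of the gene span. Cyp26b1 (gene ID 232174, chromosome 6, 84571414 to 84593908), which acts in limb and skeletal development, had 12 intervals and none within 1 kb of its start. Within Cyp26b1, 5 intervals of at least 600 bp lay over the gene, the widest 1228 bp (84583268 to 84584495).

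**Figure D2:**
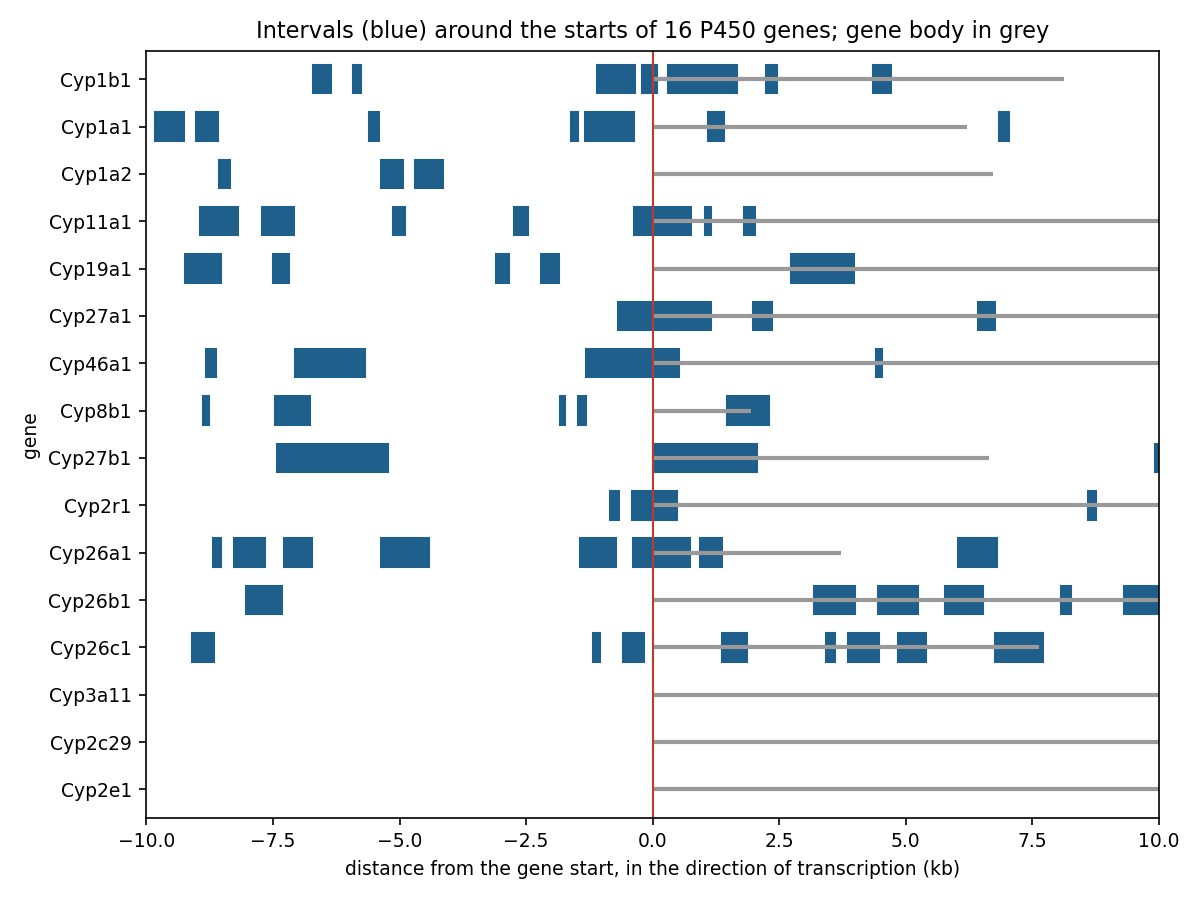
Intervals (blue boxes) around the starts of 16 P450 genes (rows), against the distance from the start in kb in the direction of transcription, with the gene body as a grey line. For Cyp19a1 and Cyp11a1 the outermost of several starts is drawn. Intervals touch the start line in Cyp1b1, Cyp11a1, Cyp27a1, Cyp46a1, Cyp27b1, Cyp2r1 and Cyp26a1, end 363 bp before it in Cyp1a1, and are missing from the rows of Cyp3a11, Cyp2c29 and Cyp2e1.

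The Cyp2c cluster, 14 genes over 1180 kb of chromosome 19 (39006940 to 40187286) that includes epoxygenases and drug-metabolising enzymes of liver, had 0 intervals inside. The 500 kb on either side had 18.2 intervals per 100 kb below the cluster and 24.0 above it. Cyp2c70, the outermost gene, had 1 interval of 481 bp, 9012 bp away. The other 13 members had none within 10 kb, and for Cyp2c29, Cyp2c37 and Cyp2c38 the nearest interval was 304799, 184055 and 407311 bp away.

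The Cyp3a cluster of 8 genes over 769.8 kb on chromosome 5 (145345149 to 146114978) had 2 intervals, or 0.26 per 100 kb, between flanks of 27.0 and 11.0. Cyp3a57, at the lower edge, had 2 nearby intervals (1 in the gene body, the other before the cluster), and the other 7 genes had none. For Cyp3a11, a major drug-metabolising enzyme of mouse liver, the nearest interval was 267072 bp away, and for Cyp3a16 and Cyp3a25 46821 and 137282 bp. Cyp3a13, a member of the same subfamily that lies outside the cluster, had 8 intervals within 10 kb, including 223 bp over its start (137921538 to 137921760).

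The Cyp2abfgst cluster on chromosome 7 (13 genes, 25802469 to 27158564) had 47 intervals over 1356 kb, or 3.47 per 100 kb, between flanks of 19.6 and 24.8. A stretch of 849.7 kb without an interval (25917527 to 26767210) held Cyp2b13, Cyp2b9, Cyp2a4 and Cyp2b23. Cyp2a12, Cyp2a22 and Cyp2a4 were among the 7 genes with none within 10 kb. Cyp2s1, expressed outside the liver, had 9 intervals with 912 bp over its start (25816041 to 25816952), and Cyp2t4 at the other edge had 9 with at most 575 bp at its start.

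The Cyp2d cluster on chromosome 15 (8 genes, 82370527 to 82794452) had 12 intervals, or 2.83 per 100 kb, between flanks of 23.8 and 23.2. Cyp2d22 had 5 within 10 kb, with 1352 bp over its upper end (82379635 to 82380986). Cyp2d26 at the other edge had 4, of which 196 bp lay at its start. Cyp2d34 and Cyp2d9 had none.

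The Cyp2j genes, epoxygenases of arachidonic acid, form a cluster of 7 on chromosome 4 (96042660 to 96664171) with 21 intervals, or 3.38 per 100 kb, between flanks of 21.4 and 8.4. Cyp2j6 had 11 within 10 kb, with 922 bp over its start (96552990 to 96553911), and Cyp2j9 had 4, with 1062 bp over its start (96591052 to 96592113). Cyp2j12 had 5, none at its start. Each of the 7 genes had at least 1.

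The Cyp4abx cluster, also on chromosome 4 (10 genes, 115106323 to 115647721), holds the fatty acid hydroxylases of the Cyp4a subfamily with Cyp4x1 and Cyp4b1 at its edges. It had 8 intervals, or 1.48 per 100 kb, between flanks of 14.8 and 20.4. None was wider than 427 bp, and no gene had one at its start, or at an end where the start was unknown. Cyp4x1 had 4 intervals within 10 kb, all outside the cluster, and Cyp4a14 had 3. Cyp4a10, Cyp4a12a and Cyp4a12b were among 5 genes with none.

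The Cyp4f cluster on chromosome 17 (8 genes, 32452697 to 32947415), whose enzymes hydroxylate leukotrienes and fatty acids, departed from the other 6. It had 50 intervals, or 10.1 per 100 kb, between a denser lower flank of 30.0 and a sparser upper flank of 5.4. Here 4 genes had a wide interval at a start or end. These were Cyp4f39 (886 bp, 32452366 to 32453251), which acts in the lipid barrier of skin, Cyp4f17 (1586 bp, 32505665 to 32507250), Cyp4f16 (1248 bp, 32536242 to 32537489) and Cyp4f13 (1176 bp, 32946782 to 32947957). Cyp4f39 had 12 intervals within 10 kb and Cyp4f17 had 8. Zinc-finger genes lie between the Cyp4f genes, and 11 of the 50 intervals overlapped these and no P450 gene.

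Over the 7 clusters together 140 intervals lay in 5388 kb, or 2.6 per 100 kb, against 19.4 in the 500 kb flanks. The flanks were denser than the cluster on both sides in 6 of the 7, and the Cyp4f upper flank was not. Of the 140, 59 overlapped a P450 gene and 70 overlapped no protein-coding gene. Pooled over the 7 clusters, an interval at the start was more frequent among genes at cluster edges, a pattern chosen after its values were seen. Of the 14 outermost genes 7 had such an interval, below the 72.7% of all protein-coding genes, namely Cyp2s1, Cyp2t4, Cyp2d22, Cyp2d26, Cyp2j13, Cyp4f39 and Cyp4f13. Of the 54 inner genes 4 had one (Cyp2j6, Cyp2j9, Cyp4f16 and Cyp4f17). The pattern differed by cluster: in Cyp2abfgst and Cyp2d only outermost genes had one, and in Cyp2j and Cyp4f inner genes had one as well. In Cyp2c, Cyp3a and Cyp4abx no gene had one, at an edge or inside. Intervals over the gene body were present in 10 of the 14 and 12 of the 54, against 79.1% of all protein-coding genes.

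**Figure D3:**
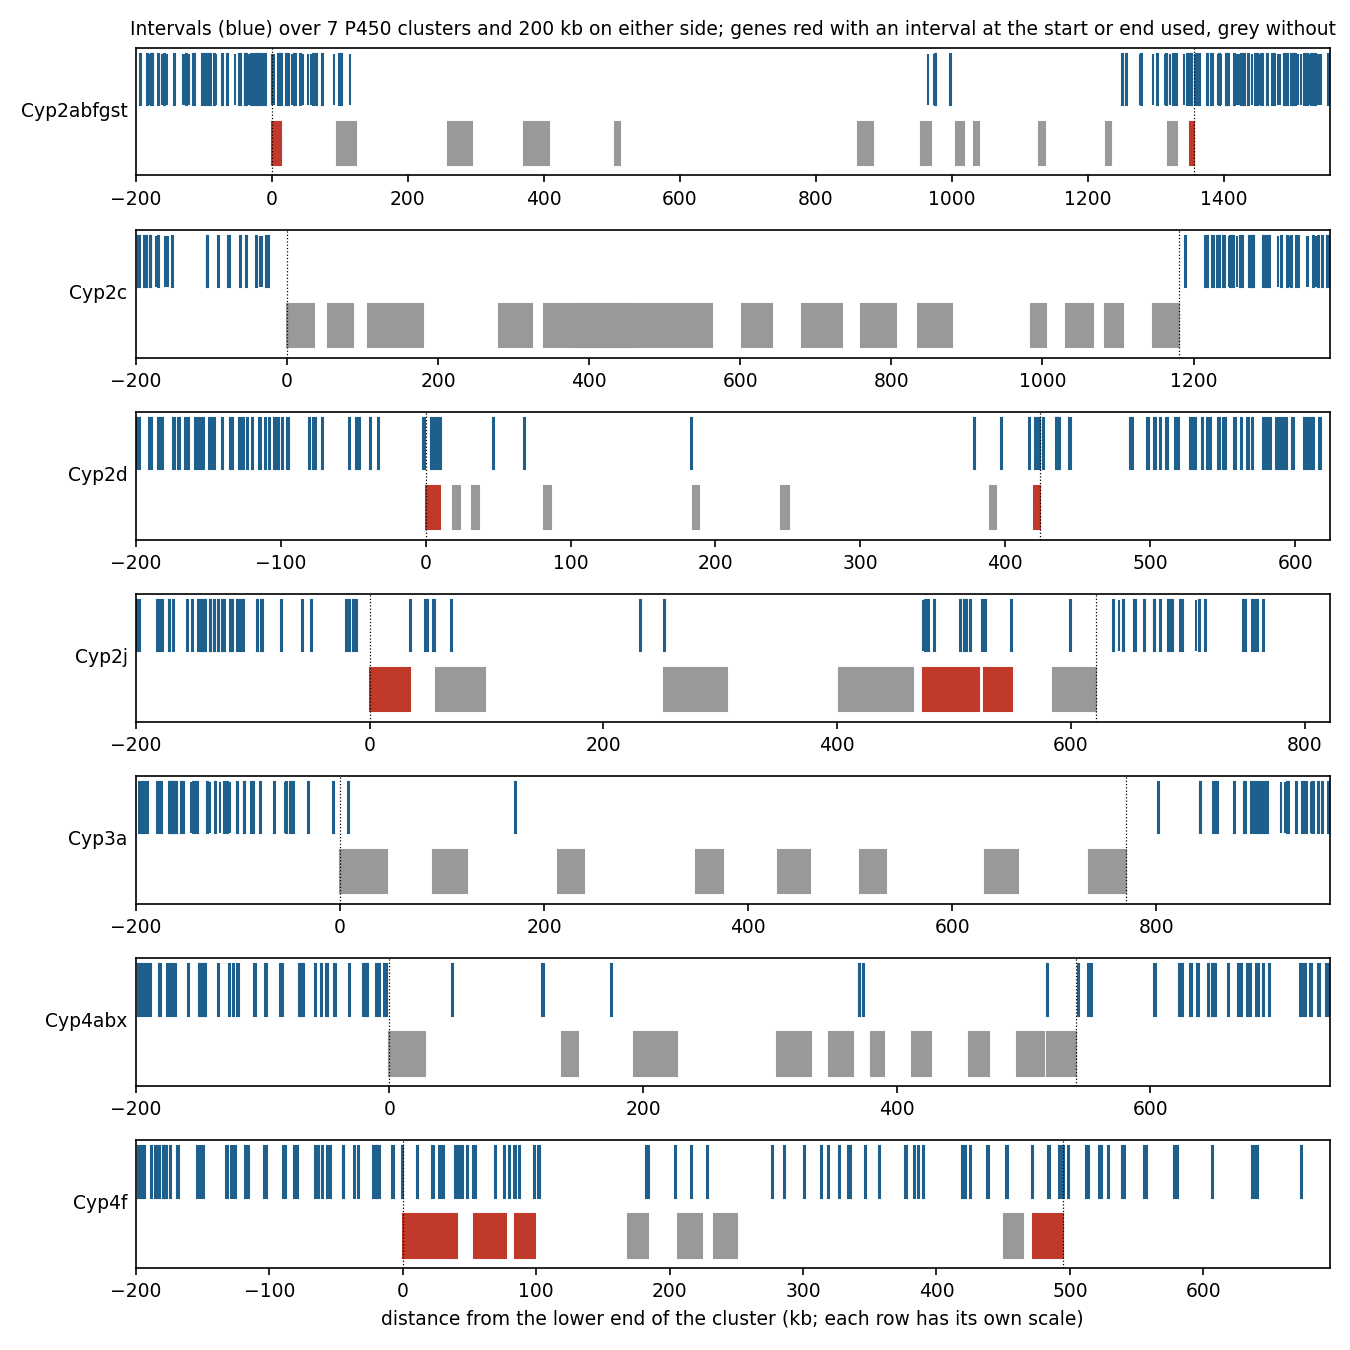
Each row is a P450 cluster with 200 kb on either side, against the distance from its lower end in kb, with intervals as blue ticks (drawn at a minimum width) and genes as boxes, red where an interval lies at the start or end used. Ticks are missing inside the dotted limits of Cyp2c, reduced to 2 inside Cyp3a, and present through Cyp4f, which held 50.

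Values of near-identical copies are uncertain, since reads that match several copies equally have no unique place, and the handling of such reads is not stated in the labels or headers. The 250 bases before the start could be compared for the 76 members with a known start, and not for the other 22. They were at least 90% identical to those of another member in 13 genes, up to 99.6% between Cyp3a41a and Cyp3a41b. Of these 13 genes, 12 had no interval within 10 kb. Of the 43 clustered genes with a known start and lower identity, 16 had none and 9 had an interval at the start, with a median density of 2.4 per 100 kb. At identities under 75% the counts were 3 and 9 of 28 genes, and the median density was 7.8. Over all protein-coding genes, 85.3% had an interval within 10 kb and the median density was 18.2. Of those with a known start, 71.6% had an interval within 1 kb of it. In the Cyp2c cluster 12 of 13 genes with a known start had no interval within 10 kb, and 2 of the 13 were at least 90% identical to another member. The part of read placement in these counts was not tested.

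Single Cyp2, Cyp3 and Cyp4 genes outside clusters had a higher density than their clustered relatives. With Cyp20a1, a P450 without an assigned substrate, they form a group of 9 whose median was 15.2 per 100 kb. Of the 9, 7 (77.8%) had an interval at a start or end, near the 72.7% of all protein-coding genes. Cyp4v3 (1743 bp, chromosome 8, 45332433 to 45334175), a fatty acid hydroxylase, Cyp20a1 (1541 bp, chromosome 1, 60342696 to 60344236) and Cyp2u1 (1437 bp, chromosome 3, 131302142 to 131303578) had wide ones. Those of Cyp2ab1, Cyp2w1 and Cyp4f18 measured at most 273, 322 and 366 bp. Cyp2c23 had 11 intervals within 10 kb and none at an end. Cyp2e1, the ethanol-oxidising enzyme of liver, had none within 10 kb, the single such gene outside clusters, and the nearest to its start was 12260 bp away. Over all 98 members, 21 (21.4%) had an interval of at least 600 bp at the start or end, against that 64.6%.

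The P450 starts were poor in CpG, the dinucleotide that marks promoters active in many tissues. The ratio of observed to expected CpG in the 250 bases before the start had a median of 0.169 over 86 starts of the 76 members, against 0.53 over 21263 starts of protein-coding genes. A ratio of at least 0.6 was reached by 6 P450 starts (Cyp46a1, Cyp4v3, Cyp26a1, Cyp2r1, Cyp20a1 and Cyp2s1), and all 6 had an interval, as had 96.2% of such starts genome-wide. Below 0.6, 19 of 80 P450 starts had one (23.8%), against 53.1%. In that lower range the counts were 9 of 62 in clusters (14.5%) and 10 of 18 outside (55.6%). Of the 25 P450 starts with an interval 76% had a ratio under 0.6, against 40.6% of all protein-coding starts with an interval. Cyp27b1 (0.055), Cyp3a13 (0.0877) and Cyp4f16 (0.1) had the lowest ratios among the P450 starts whose start base was covered by an interval. The Cyp27b1 interval begins at 127048245, the last of its 250 bases, so nearly all of that stretch lies outside it.

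**Figure D4:**
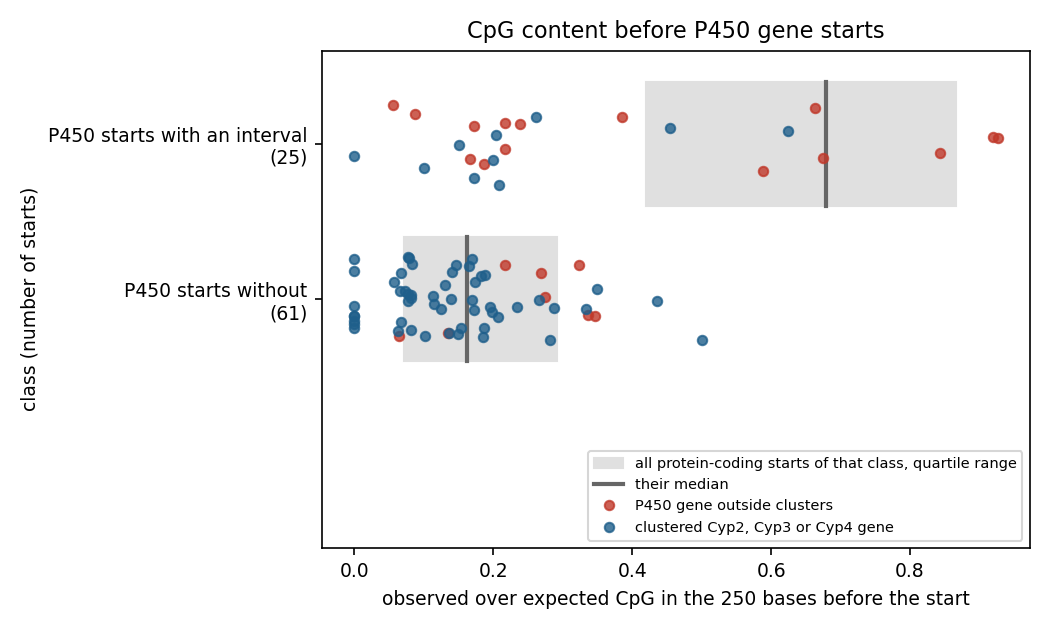
Observed over expected CpG (horizontal axis) in the 250 bases before 86 P450 starts, split by whether an interval lay within 1 kb (rows). Boxes and bars give the quartile range and median of all protein-coding starts of each class, and most of the 25 P450 starts with an interval lie below the box of their class.

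Short motifs were searched in the same 250 bases on both strands, and compared between starts with and without an interval. The starts are not all separate sequences, in these counts or in those of CpG. Some starts of Cyp2j13, Cyp3a25 and Cyp4f14 lie few bases apart, and near-identical copies of different genes are counted one by one. GCGTG was present in 12 of 25 P450 starts with an interval and 4 of 61 without, against 42.4% and 11.3% of protein-coding starts of each class. TATAAA was present in 2 of 25 and 28 of 61, against 7.18% and 23.3%. AGGTCA, a half-site of nuclear receptors, was present in 1 of 25 and 18 of 61, against 11.1% and 17.3%. GGGCGG, the GC box, was present in 12 of 25 and 5 of 61, against 54.9% and 10.5%. GCGTG and GGGCGG contain a CpG and so rise with CpG content. CAGCTG, an E-box of myogenic factors, was present in similar shares, 4 of 25 (16%) and 9 of 61 (14.8%), against 12.7% and 10.6% of protein-coding starts of each class. TGANTCA of AP-1 was present in 2 of 25 (8%) and 3 of 61 (4.92%), against 5.27% and 8.4%. CCAAT was present in 12 of 25 (48%) and 23 of 61 (37.7%), against 34.5% and 37.6%. TGACGTCA of the cAMP response was present in 0 of 86 P450 starts, against 1.92% of all protein-coding starts. A match describes the letters and is not evidence of binding.

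Partners of these enzymes were counted for an interval at a start or end, which 72.7% of all protein-coding genes had, and 81.5% of those without Olfr, Vmn and Gm symbols. They numbered 6 of 7 for the redox partners, which pass electrons to P450 enzymes (Cyb5r3 had none, and Por, the microsomal reductase, had 1152 bp), 6 of 6 for the aryl hydrocarbon receptor pathway (the receptor Ahr with 1311 bp, its target Tiparp with 2233 bp), and 9 of 10 for sterol synthesis (Fdft1 had none). For receptors and enzymes of vitamin D and retinoids the count was 10 of 10, for receptors of foreign compounds and bile acids 5 of 6, and for partners of steroid-making cells 6 of 9 (66.7%). The last lies near the 72.7% and below the 81.5%, and rests on 9 genes. Nr5a1, the factor that defines steroid-making cells, had none at an end and 14 within 10 kb.

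The labelled cell type was checked against markers. All 10 fibroblast markers had an interval at a start or end, against 72.7% of protein-coding genes, and their median density was 39.0 per 100 kb. Of 10 hepatocyte markers 4 had one, with a median density of 13.8, and Alb, Afp, Ttr, Tat, Hnf4a and Serpina1a had none there. Of 7 adrenal and gonadal markers 3 had one (Star, Cyp11a1 and Lhcgr), with a median density of 27.1. Cyp11a1 and Cyp17a1 in this list are P450 members themselves, and the median density is the value of Cyp17a1. That density lies above the 18.2 of all protein-coding genes, whereas the count lies below their share. Intervals do not measure expression.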

How the data were processed

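ATAC-seq libraries were prepared by the Omni-ATAC protocol, per the labels' protocols. The submitters' processing notes name the tools BWA, MACS2 and DESeq2 and the build GRCm38.p6, without roles or settings. Per the file headers the authors annotated consensus peaks with HOMER against a GRCm38.p6 sequence. Neither headers nor labels state how peaks were called and joined. The deposited table lists interval starts and ends (1-based), and its deposited peak score is 0 throughout and was not used. It has no value per library, so depth and replicate error are unknown and DESeq2 was not run.

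Genes and starts came from RefSeq on the same assembly (GRCm38.p6). Of the 98 members, 76 matched an entry in the promoter table. Exons and introns were not annotated. An overlap of at least 1 bp counted, within 10 kb of the gene or 1 kb of the start, or of either gene end without a known start. Identity between promoters came from global alignment (Biopython 1.88). The overlap counts were tested on simulated data against direct counting. No comparison between groups was run. Python 3.11.15, numpy 2.4.6, pandas 2.3.3 and matplotlib 3.10.9 were used. Of the 94 listed symbols, 94 matched.

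Named genes were all steroid, sterol, vitamin D, retinoic acid and Cyp1 genes, all single Cyp2, Cyp3 and Cyp4 genes, those with an interval of at least 600 bp at the start, and in each cluster up to 3 genes without an interval and the 2 richest in intervals. The members, lists and measures were chosen with earlier results of these data known. The identity limits, the flanks, the cluster edges and the CpG ratio were chosen after the data were seen.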

Additional observations from a re-analysis of the deposited data

How the results depend on the processing

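The count of members with an interval in the window (63) ranged from 44 to 68, and that with one at the start (31) from 21 to 39. Of the 13 steroid, sterol and Cyp1b1 genes 11 (84.6%) had an interval within 2 kb of the start in place of 7 within 1 kb, which put them above all protein-coding genes (76.3%) and not below. At 2 kb the clustered genes had 15 of 68. The 34 clustered genes with an interval in the window fell to 22 over gene bodies alone and to 21 with intervals of at least 600 bp, each by more than 1.5 times.

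Median densities per 100 kb are given for the 98 members, the 13 genes and the 68 clustered genes in turn. They were 0, 19 and 0 over gene bodies alone, 4.45, 18.1 and 0 with 5 kb around the gene, and 4.8, 17 and 1.77 with 20 kb. Counting midpoints inside the window gave 4.93 for the members and 0 for the clustered genes. Intervals of at least 300 bp gave 2.18, 8.67 and 0, and those of at least 600 bp 0, 3.84 and 0, against 10.3 and 5.06 over all protein-coding genes. With Cyp51, Tbxas1 and Ptgis, P450 genes whose symbols miss the rule, added, the members had 6.33 and the steroid, sterol and Cyp1b1 genes with Cyp51 17.6. In each setting the 13 genes lay above the clustered genes. Taking either gene end for every gene, chosen after the data were seen, gave 8 of the 13 and 15 of the 68.

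No paired analysis was possible because the table has no column of a library, and no replicate was left out for the same reason. Depth is unknown, and an absent interval is an absent call.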

Other observations

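P450 genes whose symbols miss the rule were measured in the same way. Cyp51, the sterol demethylase of cholesterol synthesis, had a single interval within 10 kb, 1459 bp wide and at its start, and a density of 2.27 per 100 kb. Tbxas1, the thromboxane synthase, had 75 intervals (31.2 per 100 kb) with at most 483 bp at its start, and Ptgis, the prostacyclin synthase, had 23 (33.4 per 100 kb) with 669 bp at an end.

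The interval-free stretches of the clusters were ranked among all stretches between neighbouring intervals of a chromosome, assembly gaps included. The stretch over the Cyp2c cluster ran for 1214 kb and ranked 33, that inside the Cyp2abfgst cluster (849.7 kb) ranked 60, and that over 6 Cyp3a genes (630.3 kb) ranked 97. The longest in the Cyp4f cluster, 79.95 kb, ranked 2685.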
